A study of Mus musculus with 6 samples.

Results

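The genes described here encode receptors for interleukins, interferons and colony-stimulating factors (CSF) in mouse bone-marrow-derived macrophages. They were chosen by name among the protein-coding rows of the deposited table: symbols that start with Il, a number and r, the Ifnar, Ifngr and Ifnlr genes, and Csf2ra, Csf2rb, Csf2rb2 and Csf3r, with the interleukin-1 receptor family, Il18r1 and Il18rap left out. The rule took 42 of 54532 rows, with 40 symbols, because Il11ra2 is listed at 3 positions. The rule uses names alone and no measured value, but it was set with earlier results of these data known.

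RNA was sequenced from 2 groups of 3 libraries each, macrophages labelled Tet2 knockout (KO-labelled) and macrophages labelled wild-type (WT-labelled). Cells of both groups had been treated with monosodium urate (MSU), the crystal that triggers gout, so the comparison concerns the genotype label within treated cells. TET2 oxidises methylated cytosine in DNA and is often lost in clonal hematopoiesis. The labels give neither the allele, the strain, the age of the mice, the dose nor the time, and do not say whether the 3 libraries stem from different animals or cultures, so that the spread behind each p-value is the spread among 3 libraries and may be technical alone. Tet2 itself was not lower in KO-labelled libraries, with raw counts of 467, 482 and 450, against 413, 338 and 427 in WT-labelled libraries (log2 change 0.20, SE 0.07; edgeR adjusted p = 0.0159). A gene-level count does not show a partial deletion, and groups are therefore named by their labels.

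Cytokine receptors work as assemblies of chains. In many families a private chain binds the cytokine together with a shared chain, and Janus kinases (JAK) on the receptor activate STAT transcription factors. IL-10 restrains macrophage activation, interferon-gamma primes it, GM-CSF and IL-3 act through a common beta chain, and IL-4, IL-7, IL-15 and IL-21 can use the common gamma chain Il2rg. The level of 1 chain may limit how much of a receptor can form, although mRNA does not measure receptor at the cell surface.

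Among the receptors, the largest rises in KO-labelled libraries were in Il21r, which binds IL-21, and in Il12rb2 and Il12rb1, the chains of the IL-12 receptor. Il6ra, Il2rg, Il10ra and Il15ra rose by smaller amounts, and both chains of the interferon-gamma receptor rose a little. The receptor for IL-7 and the private alpha chains of the GM-CSF and IL-3 receptors fell. Ifnar1 rose while Ifnar2, its partner in the type I interferon receptor, fell.

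Of the 42 rows, 27 passed the filter on low counts and were tested, and 15 did not. Among the tested receptors 12 rose and 6 fell at an edgeR adjusted p under 0.05, and 9 were not called. Across all 13175 tested genes 40.9% were called, 21.6% higher and 19.2% lower, against 66.7% of the tested receptors, 44.4% higher and 22.2% lower. The median log2 change was 0.14 over the tested receptors and -0.0031 over all tested genes, and the median size of change regardless of sign was 0.34 over the tested receptors and 0.17 over all tested genes. The 3 KO-labelled libraries lay entirely above or below the 3 WT-labelled ones in 19 of the 27 receptors, 70.4%, where the share over all tested genes was 47.8%. They lay above in 13 receptors, 48.1% against 24.8% of all genes, and below in 6, 22.2% against 23% of all genes. Summed over all rows, the receptors took 2973 to 3004 CPM (the count relative to the library size, scaled by the TMM method) in KO-labelled libraries, and 2907 to 2939 CPM in WT-labelled libraries.

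**Figure D1:**
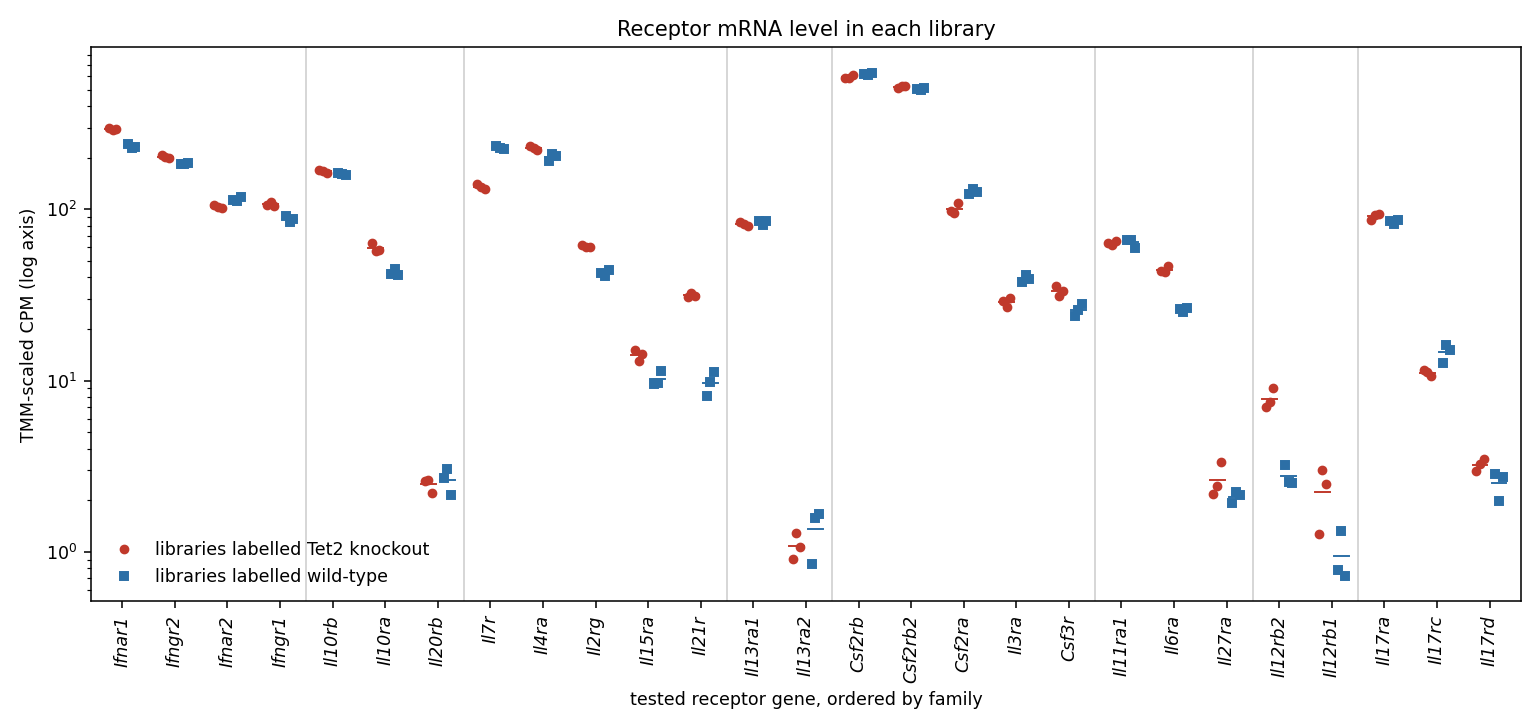
Level of each tested receptor gene in each library, in TMM-scaled CPM on a log axis, with the 3 libraries labelled Tet2 knockout as circles left of the 3 labelled wild-type as squares; short lines are group means and vertical lines separate families. Il21r lies at 30.6 to 32.5 CPM in KO-labelled libraries and at 8.10 to 11.2 CPM in WT-labelled libraries, while the Il11ra1 and Il13ra1 symbols overlap.

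Total counts ran from 13425170 to 14481843 in KO-labelled libraries and from 11997104 to 13881435 in WT-labelled libraries. Wild-type replicate 2 differed from the other 2 wild-type libraries by 2.30 and 2.32 times the variance of sampling noise, against 1.55 to 1.71 for the other pairs within a group; without it, 12 receptors still rose and 6 fell. All 8 macrophage markers were tested, and they summed to between 5903 and 6173 CPM in KO-labelled libraries and between 5662 and 6030 CPM in WT-labelled libraries. Markers of T and NK cells, in which the receptors for IL-2, IL-7, IL-12 and IL-21 are best known, had 0 of 9 genes tested and summed to at most 0.142 CPM in KO-labelled libraries and 0.288 CPM in WT-labelled libraries, with Cd3d, Cd3g, Nkg7 and Gzma at 0 in every library. Markers of B cells, which also respond to IL-21, had 0 of 5 genes tested and summed to 0.378 to 1.33 CPM in KO-labelled libraries, against 0.0719 to 0.330 CPM in WT-labelled libraries. Fibroblast markers were high and summed to more than the macrophage markers in both groups. They took 6952 to 7131 CPM in KO-labelled libraries and 7412 to 7921 CPM in WT-labelled libraries. In that list 1 of 8 members rose and 4 fell. The part of fibroblasts, T and NK cells or B cells in the receptor values was not tested. In RNA from mixed cells, fewer cells of a type and less RNA per cell cannot be told apart.

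These 5 promoters are shown because they belong to the largest rise, to the neighbouring type I interferon receptor genes that moved in opposite directions, to the IL-12 receptor chain with the largest change, and to the largest fall. Each window runs from 250 bases before to 50 bases after the gene's start in RefSeq (GRCm38.p6, the assembly also called mm10), 5′ to 3′ on the gene's strand, with matches to the STAT-binding motif GAS (TTCNNNGAA, which reads alike on both strands) in capitals.
Il21r (chr7:125603179-125603478, plus strand): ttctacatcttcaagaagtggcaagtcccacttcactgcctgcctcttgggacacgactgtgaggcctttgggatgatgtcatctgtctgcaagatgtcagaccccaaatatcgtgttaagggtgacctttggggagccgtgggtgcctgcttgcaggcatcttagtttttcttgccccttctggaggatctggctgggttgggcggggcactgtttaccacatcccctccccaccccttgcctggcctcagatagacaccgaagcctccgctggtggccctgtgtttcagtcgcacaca
Il12rb2 (chr6:67376139-67376438, minus strand): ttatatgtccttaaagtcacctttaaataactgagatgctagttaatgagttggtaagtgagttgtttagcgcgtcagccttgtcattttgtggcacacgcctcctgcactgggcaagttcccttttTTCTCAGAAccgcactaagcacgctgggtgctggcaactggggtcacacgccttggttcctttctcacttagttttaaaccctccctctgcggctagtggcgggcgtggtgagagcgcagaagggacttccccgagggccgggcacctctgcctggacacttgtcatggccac
Ifnar1 (chr16:91484965-91485264, plus strand): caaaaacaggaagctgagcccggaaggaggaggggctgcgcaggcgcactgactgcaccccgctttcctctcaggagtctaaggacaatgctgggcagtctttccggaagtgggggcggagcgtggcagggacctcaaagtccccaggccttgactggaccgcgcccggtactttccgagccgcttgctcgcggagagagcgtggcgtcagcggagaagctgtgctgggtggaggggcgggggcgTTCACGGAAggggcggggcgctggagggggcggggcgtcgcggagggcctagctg
Ifnar2 (chr16:91372533-91372832, plus strand): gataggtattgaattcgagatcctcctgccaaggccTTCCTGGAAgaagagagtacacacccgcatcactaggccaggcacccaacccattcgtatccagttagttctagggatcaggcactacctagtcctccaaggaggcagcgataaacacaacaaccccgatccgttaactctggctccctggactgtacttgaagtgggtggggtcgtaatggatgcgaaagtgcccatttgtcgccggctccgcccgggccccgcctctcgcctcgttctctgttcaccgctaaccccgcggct
Il7r (chr15:9529827-9530126, minus strand): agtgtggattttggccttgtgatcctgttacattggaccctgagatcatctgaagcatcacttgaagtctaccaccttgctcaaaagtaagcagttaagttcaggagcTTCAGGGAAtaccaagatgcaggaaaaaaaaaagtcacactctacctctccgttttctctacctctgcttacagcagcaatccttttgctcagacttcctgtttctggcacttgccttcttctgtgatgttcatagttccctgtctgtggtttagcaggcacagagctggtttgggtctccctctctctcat

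These windows were searched for 3 motifs on both strands: GAS, the interferon-stimulated response element (ISRE, searched as GAAA, 2 bases of any kind and GAAA again) and a core of the site of the myeloid factor PU.1 (GAGGAAG). RefSeq windows were given for 21 of the 27 tested receptors, 23 windows in all, leaving Il10ra, Il10rb, Il12rb1, Il17ra, Il27ra and Csf2rb without one. GAS letters were present in 5 of the 23 windows, those of Ifnar1, Ifnar2, Il12rb2, Il7r and Csf2rb2, where 8.3% of all 32851 promoter windows hold them. In the 5 windows printed, the first base of the GAS match lies at position -123 relative to the start of Il12rb2, -5 for Ifnar1, -214 for Ifnar2 and -142 for Il7r, and the Il21r window holds none. Of these 4 genes 2 rose and 2 fell. ISRE letters were in 0 of the 23 windows and in 3.44% of all windows. PU.1 letters were in 5 windows, those of Csf2ra, Csf2rb2, Csf3r, Il11ra1 and Il15ra, and in 13.6% of all windows. A match describes letters and not binding.

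**Figure D2:**
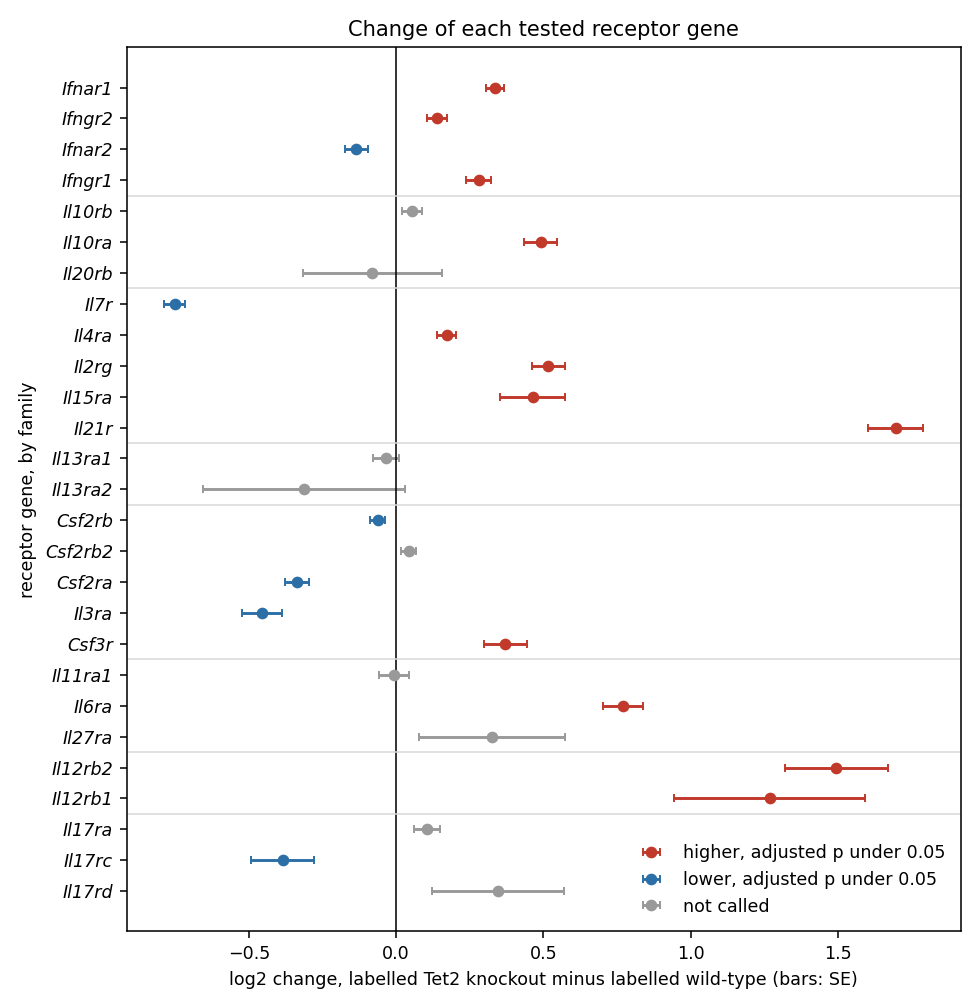
Log2 change of each of the 27 tested receptor genes, libraries labelled Tet2 knockout minus libraries labelled wild-type, with bars for the SE, grouped by family; red marks genes called higher, blue those called lower and grey those not called. Il21r, Il12rb2 and Il12rb1 lie beyond a log2 change of 1, and Il7r has the lowest value, at -0.75.

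Interferon receptors were measured for both antiviral interferons and interferon-gamma, and 3 of 4 tested chains rose and 1 fell. Counts by family, here and below, are to be read against all tested genes, of which 21.6% were called higher and 19.2% lower. Ifnar1 (ENSMUSG00000022967, mm10 chromosome 16, positions 91485238 to 91507441, plus strand), the chain that docks the kinase TYK2, had 300.2, 291 and 294 CPM in KO-labelled libraries, against 241, 228 and 232 CPM in WT-labelled libraries. The groups did not overlap (log2 change 0.34, SE 0.03; edgeR adjusted p = 4.78e-18). Ifnar2 (ENSMUSG00000022971, mm10 chromosome 16, positions 91372783 to 91405589, plus strand), the high-affinity chain of the same receptor, had 107, 103 and 102 CPM in KO-labelled libraries and 113, 112 and 117 CPM in WT-labelled libraries, every KO-labelled library below every WT-labelled one (log2 change -0.14, SE 0.04; edgeR adjusted p = 0.00403).

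Ifngr1, the ligand-binding chain of the interferon-gamma receptor, had 106, 109.8 and 105 CPM in KO-labelled libraries and 91.8, 84.2 and 87.3 CPM in WT-labelled libraries (log2 change 0.28, SE 0.04; edgeR adjusted p = 1.98e-08). Its signalling partner Ifngr2 had 208, 201 and 200.1 CPM in KO-labelled libraries and 183, 184 and 187 CPM in WT-labelled libraries (log2 change 0.14, SE 0.03; edgeR adjusted p = 0.000272). Neither chain's groups overlapped. The calls of Ifnar2, Ifngr1 and Ifngr2 were lost when a biological coefficient of variation of 0.1 was assumed in place of the 2.63% estimated from these libraries (edgeR adjusted p = 0.536, 0.110 and 0.518), whereas Ifnar1 still passed (0.0382). Ifnlr1, the private chain for interferon-lambda, had at most 2 counts in any library.

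Ifnar2, Il10rb, Ifnar1 and Ifngr2 lie in this order within 193 kb of chromosome 16, all on the plus strand. Over that stretch the log2 change was -0.14 for Ifnar2, 0.05 for Il10rb, 0.34 for Ifnar1 and 0.14 for Ifngr2. A listed read-through gene, Gm21970, had 0 counts in every library and covers 315 of the 3329 exon bases of Ifnar2 and 569 of the 3808 of Il10rb. Reads from those bases can be assigned to either gene or left out, depending on a counting option that the sources used here do not give.

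**Figure D3:**
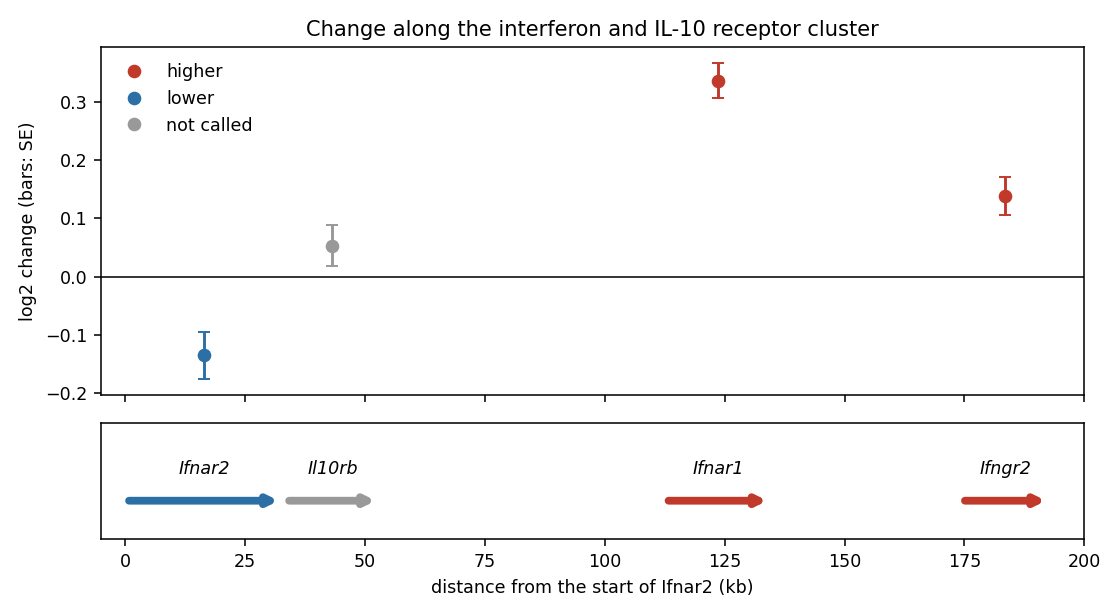
Log2 change with its SE (upper panel) along the cluster of 4 receptor genes on mouse chromosome 16, plotted against the distance in kb from the start of Ifnar2, with arrows for the extent and strand of each gene (lower panel). The first gene, Ifnar2, lies below 0, Il10rb near 0, and Ifnar1 and Ifngr2 above 0.

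In the IL-10 and IL-22 receptor family 1 of 3 tested members rose. Il10ra (ENSMUSG00000032089, mm10 chromosome 9, positions 45253837 to 45269149, minus strand), the private chain for IL-10, had 63.6, 57.3 and 58.2 CPM in KO-labelled libraries and 42.1, 44.6 and 41.1 CPM in WT-labelled libraries, with no overlap (log2 change 0.49, SE 0.06; edgeR adjusted p = 1.21e-12). The chain it pairs with, Il10rb, which also serves IL-22 and interferon-lambda, had 171, 168 and 163 CPM in KO-labelled libraries and 164, 162 and 159 CPM in WT-labelled libraries and was not called (log2 change 0.05, SE 0.03; edgeR adjusted p = 0.226). Il20rb, a chain for IL-19, IL-20 and IL-24, was low at 2.47 ± 0.242 CPM in KO-labelled libraries and 2.64 ± 0.451 CPM in WT-labelled libraries (SD over n = 3 each; edgeR adjusted p = 0.82). Il20ra had 4 to 9 counts a library and was not tested, and Il22ra1 and the soluble decoy Il22ra2 had 0 counts in every library, which allows a level of up to 3 counts, or 0.211 to 0.248 CPM a library.

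All 5 tested members of the common gamma chain family were called, 4 of them higher. Of all tested genes 40.9% were called, 21.6% higher. Il21r (ENSMUSG00000030745, mm10 chromosome 7, positions 125603429 to 125633570, plus strand) encodes the private chain for IL-21, a cytokine made mainly by T cells. It had 30.6, 32.5 and 31.3 CPM in KO-labelled libraries and 8.10, 9.82 and 11.2 CPM in WT-labelled libraries, a 3.24-fold difference (log2 change 1.70, SE 0.09; edgeR adjusted p = 4.91e-32). The lowest KO-labelled library was well above the highest WT-labelled one, and the log2 change lay between 1.57 and 1.82 over all alternatives. Its neighbour 24 kb upstream on chromosome 7, Il4ra, which binds IL-4 and IL-13, had 234, 228 and 222 CPM in KO-labelled libraries and 193, 212 and 204 CPM in WT-labelled libraries (log2 change 0.17, SE 0.03; edgeR adjusted p = 6.34e-06). The Il4ra groups did not overlap, and the call was lost with the assumed variation of 0.1 (edgeR adjusted p = 0.396). An antisense gene with 0 to 3 counts a library, Gm44876, shares 571 of the 6002 exon bases of Il4ra.

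Il2rg (ENSMUSG00000031304, mm10 chromosome X, positions 101264378 to 101268255, minus strand), the shared gamma chain, had 61.5, 60.4 and 60.5 CPM in KO-labelled libraries, against 42.4, 40.5 and 44.4 CPM in WT-labelled libraries (log2 change 0.52, SE 0.06; edgeR adjusted p = 5.73e-14). A gene listed at 0 counts throughout, Gm20489, shares 728 of its 2387 exon bases. Il15ra, which presents IL-15 to neighbouring cells, had 15.1, 13.0 and 14.3 CPM in KO-labelled libraries and 9.59, 9.74 and 11.4 CPM in WT-labelled libraries (log2 change 0.46, SE 0.11; edgeR adjusted p = 0.00027). The groups of both genes were apart.

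Il7r (ENSMUSG00000003882, mm10 chromosome 15, positions 9505788 to 9530176, minus strand), the receptor for IL-7 and, with Crlf2, for thymic stromal lymphopoietin, was the member with the largest fall. It had 140.4, 135 and 131 CPM in KO-labelled libraries and 233, 228 and 224 CPM in WT-labelled libraries, 0.594 times the wild-type level (log2 change -0.75, SE 0.03; edgeR adjusted p = 1.31e-38). No KO-labelled library came near the wild-type range, and the change lay between -0.78 and -0.73 over all alternatives. Crlf2 had 80.2 ± 4.44 CPM in KO-labelled libraries and 86.7 ± 6.49 CPM in WT-labelled libraries (SD over n = 3 each) and was not called (log2 change -0.11, SE 0.05; edgeR adjusted p = 0.052). Of the other members of the family, Il2ra had 0 to 4 counts, Il2rb 1 to 5 and Il9r 0 to 2 a library, too few to test.

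Neither IL-13 receptor was called. Il13ra1, which pairs with Il4ra, had 84.0, 82.0 and 80.1 CPM in KO-labelled libraries and 85.5, 81.3 and 85.2 CPM in WT-labelled libraries (log2 change -0.03, SE 0.04; edgeR adjusted p = 0.577). Il13ra2, a decoy that binds IL-13, had 13 to 18 counts in KO-labelled libraries and 12 to 23 in WT-labelled libraries (log2 change -0.31, SE 0.34; edgeR adjusted p = 0.501), so that a moderate change was not detectable at this depth.

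In the family of the common beta chain and CSF receptors 3 of 5 tested members fell and 1 rose. Csf2ra (ENSMUSG00000059326, mm10 chromosome 19, positions 61224402 to 61228418, minus strand), the GM-CSF-binding chain, had 98.1, 95.8 and 108 CPM in KO-labelled libraries and 124, 131 and 127 CPM in WT-labelled libraries (log2 change -0.34, SE 0.04; edgeR adjusted p = 1.13e-11). Il3ra (ENSMUSG00000068758, mm10 chromosome 14, positions 14346275 to 14356011, plus strand), the IL-3-binding chain, had 29.0, 27.0 and 30.5 CPM in KO-labelled libraries and 37.8, 41.6 and 39.3 CPM in WT-labelled libraries (log2 change -0.46, SE 0.07; edgeR adjusted p = 1.25e-08). Both sets of 3 libraries were apart in both genes, and each call held under every alternative. Csf3r, the receptor for G-CSF, moved the other way, with 35.4, 31.2 and 33.4 CPM in KO-labelled libraries and 23.9, 25.7 and 27.9 CPM in WT-labelled libraries (log2 change 0.37, SE 0.07; edgeR adjusted p = 1.22e-05). Of the 50-base stretches of Csf3r transcripts 10.7% also occur in other genes. Neutrophils are the cells best known for Csf3r. Of 9 neutrophil markers 1 was tested and was not called. The 9 summed to 1.49 to 2.04 CPM in KO-labelled libraries and 1.15 to 1.57 CPM in WT-labelled libraries. The part of neutrophils in the Csf3r values was not tested.

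Csf2rb, the beta chain shared by the receptors for GM-CSF, IL-3 and IL-5, and Csf2rb2, its mouse copy for IL-3, lie 20 kb apart on chromosome 15 and were the highest of the tested receptors per kb of exon. Csf2rb had 584, 585 and 606 CPM in KO-labelled libraries and 615, 610.0 and 629 CPM in WT-labelled libraries (log2 change -0.06, SE 0.03; edgeR adjusted p = 0.0364). Csf2rb2 had 512, 524 and 526 CPM in KO-labelled libraries and 504, 499.6 and 512 CPM in WT-labelled libraries and was not called (log2 change 0.04, SE 0.03; edgeR adjusted p = 0.187). The transcripts of each share many stretches of 50 bases with other genes, chiefly with each other, 12.3% of those of Csf2rb and 18.9% of those of Csf2rb2, so the split of reads between them is uncertain. With their counts summed the call was lost (log2 change -0.01; edgeR adjusted p = 0.663). The small fall of Csf2rb was also lost with DESeq2 (0.0513), with no filter on low counts (0.0511), with the assumed variation of 0.1 (0.801) and without knockout replicate 1 (0.169), knockout replicate 2 (0.162) or wild-type replicate 3 (0.156), and its adjusted p ranged from 0.00183 to 0.801 over all alternatives. Il5ra had 0 counts in every library.

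Among the private chains that signal through gp130, 1 of 3 tested members rose. Il6ra (ENSMUSG00000027947, mm10 chromosome 3, positions 89864059 to 89913196, minus strand), the IL-6-binding chain, had 43.5, 42.9 and 46.8 CPM in KO-labelled libraries and 26.3, 25.1 and 26.5 CPM in WT-labelled libraries, a 1.71-fold difference without overlap (log2 change 0.77, SE 0.07; edgeR adjusted p = 1.17e-18). It lies on the chromosome of Tet2, at a distance of 43.6 Mb. The shared chain gp130, encoded by Il6st, which the naming rule leaves out, fell, at 256 ± 4.97 CPM in KO-labelled libraries and 299.9 ± 14.5 CPM in WT-labelled libraries (SD over n = 3 each; log2 change -0.23, SE 0.03; edgeR adjusted p = 1.71e-10). Il11ra1, for IL-11, had 63.9, 62.1 and 65.0 CPM in KO-labelled libraries and 66.1, 66.4 and 59.5 CPM in WT-labelled libraries (log2 change -0.01, SE 0.05; edgeR adjusted p = 0.932). Its value is uncertain, because 46.3% of its 50-base stretches also occur in near-identical copies such as Il11ra2 and Gm13305. Il27ra, for IL-27, was low, at 2.64 ± 0.609 CPM in KO-labelled libraries and 2.10 ± 0.162 CPM in WT-labelled libraries (SD over n = 3 each; edgeR adjusted p = 0.309). Il31ra and the Il11ra2 rows had 0 to 3 counts a library.

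Both tested chains of the IL-12 receptor rose, at low levels. Il12rb2 (ENSMUSG00000018341, mm10 chromosome 6, positions 67291318 to 67376188, minus strand), the signalling chain of the IL-12 receptor, had 100, 105 and 119 counts in KO-labelled libraries and 45, 31 and 35 in WT-labelled libraries. This was 7.02, 7.46 and 9.01 CPM in KO-labelled libraries against 3.20, 2.56 and 2.52 CPM in WT-labelled libraries, without overlap (log2 change 1.49, SE 0.17; edgeR adjusted p = 2.07e-12). Of its 3794 exon bases 1519 are also exon of Serbp1 on the opposite strand, and reads there cannot be told apart without strand. Serbp1 itself had a log2 change of -0.10 (SE 0.03; edgeR adjusted p = 0.00117). The part of Serbp1 reads in the Il12rb2 counts was not tested. Il12rb1, shared by the receptors for IL-12 and IL-23, had 18, 42 and 33 counts in KO-labelled libraries and 11, 16 and 10 in WT-labelled libraries. It was called (log2 change 1.27, SE 0.32; edgeR adjusted p = 0.000746), yet knockout replicate 1 lay below wild-type replicate 2 on the CPM scale, at 1.26 against 1.32 CPM. Il23r had 0 to 5 counts a library and was not tested.

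In the IL-17 receptor family 1 of 3 tested members fell and none rose. Il17rc, which completes the receptor for IL-17A and IL-17F, had 11.6, 11.2 and 10.6 CPM in KO-labelled libraries and 12.6, 16.1 and 15.1 CPM in WT-labelled libraries, with the groups apart (log2 change -0.39, SE 0.11; edgeR adjusted p = 0.00208). That call was lost with the assumed variation of 0.1 (edgeR adjusted p = 0.0572). Il17ra, the chain common to the family, had 86.9, 92.1 and 94.2 CPM in KO-labelled libraries and 85.3, 82.3 and 86.5 CPM in WT-labelled libraries. Its groups were apart by a narrow margin and it just missed the threshold (log2 change 0.10, SE 0.04; edgeR adjusted p = 0.0523), which it passed with the 1 CPM minimum, among protein-coding genes only and without knockout replicate 1 (0.0242, the lowest). Il17rd was low, at 3.23 ± 0.269 CPM in KO-labelled libraries and 2.52 ± 0.469 CPM in WT-labelled libraries (SD over n = 3 each; edgeR adjusted p = 0.222), and Il17rb and Il17re had at most 1 count in any library.

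Per kb of exon, the tested receptors spanned a wide range of levels. Csf2rb2 was the highest, at 109.8 ± 1.64 CPM per kb in KO-labelled libraries and 107 ± 1.30 in WT-labelled ones (SD over n = 3 each). Csf2rb came next, at 81.3 ± 1.68 in KO-labelled libraries and 84.9 ± 1.35 in WT-labelled ones, and Csf2ra after it by its listed length, which differs from the exon length in the annotation. Il7r stood at 29.1 ± 0.986 CPM per kb in KO-labelled libraries, well below Ifngr2 at 53.9 ± 1.16. In WT-labelled libraries the levels of Il7r and Ifngr2 could not be separated, at 49.0 ± 0.943 and 49.0 ± 0.551. Il7r thus ranked 10 in KO-labelled libraries and 5 in WT-labelled ones. Il21r ranked 17 of the 27 in KO-labelled libraries, at 9.46 ± 0.296 CPM per kb, and 20 in WT-labelled libraries, at 2.92 ± 0.470. The lowest 5 in each group were Il20rb, Il27ra, Il13ra2, Il17rd and Il12rb1, all under 1 CPM per kb, with neighbours such as Il20rb and Il12rb1 in KO-labelled libraries, or Il20rb and Il27ra in WT-labelled ones, within their spread.

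The ratio of 2 chains within a library does not depend on how libraries are scaled, and was computed from counts per kb for the 15 listed pairs of which both chains were tested. Each ratio was compared with a two-sided exact permutation test, which for 3 against 3 libraries cannot go below p = 0.1, or 0.115 after adjustment over the 15 pairs. No pair could therefore pass 0.05. Pairs that share a chain, such as the 4 with Il2rg, are not independent.

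The ratio of Ifnar1 to Ifnar2 was 1.58, 1.59 and 1.61 in KO-labelled libraries and 1.19, 1.15 and 1.11 in WT-labelled libraries, which made a difference of 0.47 in log2. The ratio of Il10ra to Il10rb was 0.406, 0.372 and 0.388 in KO-labelled libraries and 0.280, 0.300 and 0.283 in WT-labelled libraries (log2 difference 0.43). For Csf2ra to Csf2rb it was 0.661, 0.644 and 0.704 in KO-labelled libraries and 0.791, 0.847 and 0.792 in WT-labelled libraries (log2 difference -0.27). Its level rests on the listed Csf2ra length, which differs from the annotation, and on the uncertain split of reads between Csf2rb and Csf2rb2. The groups were apart in each of these pairs, and each p was the smallest the exact test allows.

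Against the shared gamma chain, Il7r had a ratio of 1.17, 1.14 and 1.11 in KO-labelled libraries and 2.81, 2.88 and 2.59 in WT-labelled libraries (log2 difference -1.27). Il21r had a ratio of 0.357, 0.387 and 0.371 in KO-labelled libraries and 0.137, 0.174 and 0.182 in WT-labelled libraries (log2 difference 1.19). Both pairs of groups were apart. Whether Il7r lay above or below Il2rg within a library is uncertain, because reads from the 728 of 2387 Il2rg exon bases shared with Gm20489 may not have been counted. The ratio of Il15ra to Il2rg overlapped between the groups (log2 difference -0.05; exact permutation p = 0.6). The ratio of Il6ra to Il6st was 0.219, 0.220 and 0.230 in KO-labelled libraries and 0.108, 0.113 and 0.113 in WT-labelled libraries (log2 difference 1.002). The ratio of Il12rb1 to Il12rb2 also overlapped (log2 difference -0.28; exact permutation p = 0.6), and the remaining log2 differences lay between -0.39 for Il3ra to Csf2rb and 0.54 for Il27ra to Il6st.

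**Figure D4:**
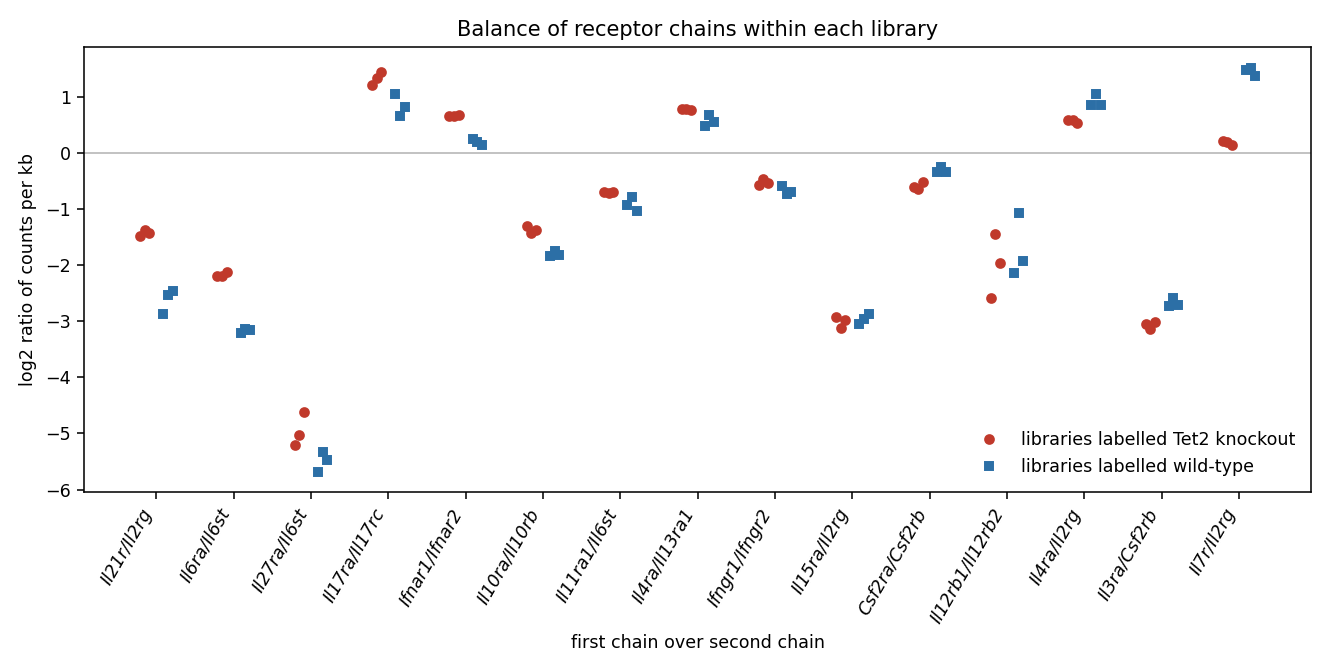
Log2 ratio of counts per kb of 2 receptor chains within each library, for the 15 pairs of which both chains were tested, with the 3 libraries labelled Tet2 knockout as circles left of the 3 labelled wild-type as squares. The widest gaps are in Il7r to Il2rg, lower in KO-labelled libraries with a log2 difference of -1.27, and in Il21r to Il2rg, higher in KO-labelled libraries by 1.19.

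Other genes of the pathway were taken from lists that share no member with the receptors, apart from Il4ra among the IL-10 response genes, and a few genes stand in more than 1 list. Their counts are to be read against the 40.9% of all tested genes that were called, 21.6% higher and 19.2% lower. Small falls among these genes depend on the variation assumed: 13 genes of the lists fell, and 4 with the assumed variation of 0.1. Of 8 tested receptors outside the naming rule 1 rose and 1 fell. Csf1r, the receptor for the macrophage growth factor M-CSF, had 1234, 1232 and 1242 CPM in KO-labelled libraries and 843, 846 and 839.9 CPM in WT-labelled libraries (log2 change 0.55, SE 0.02; edgeR adjusted p = 1.33e-41), and the 1 that fell was Il6st. Of the 4 JAK kinases 2 rose. Tyk2, which serves Ifnar1, Il10rb and Il12rb1, had 127, 124 and 123 CPM in KO-labelled libraries and 81.3, 80.5 and 83.0 CPM in WT-labelled libraries (log2 change 0.61, SE 0.04; edgeR adjusted p = 2.06e-25), and Jak3, which serves Il2rg, rose by 0.37 on the log2 scale. Jak1 and Jak2 were not called, with log2 changes of 0.04 and -0.05.

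Among the STAT genes described, Stat2 rose by 0.35, Stat5a by 0.22 and Stat3 by 0.10 on the log2 scale. Stat5b (log2 change 0.07, SE 0.06; edgeR adjusted p = 0.357) and Stat6 (log2 change -0.02, SE 0.03; edgeR adjusted p = 0.619) were not called. Among 15 inhibitors of receptor signalling 6 rose and 2 fell. Ptpn6, the phosphatase SHP-1, rose by 0.62, Socs3, which blocks gp130 receptors, by 0.52, the adaptor Sh2b3 by 0.39 and the phosphatase Ptpn1 by 0.18. Usp18, which restrains signalling at IFNAR2, and Ptpn11 were the 2 that fell, with log2 changes of -0.14 (edgeR adjusted p = 0.000702) and -0.13 (edgeR adjusted p = 0.00044). These are the size of the change in Ifnar2, whose call was lost with the assumed variation of 0.1.

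**Figure D5:**
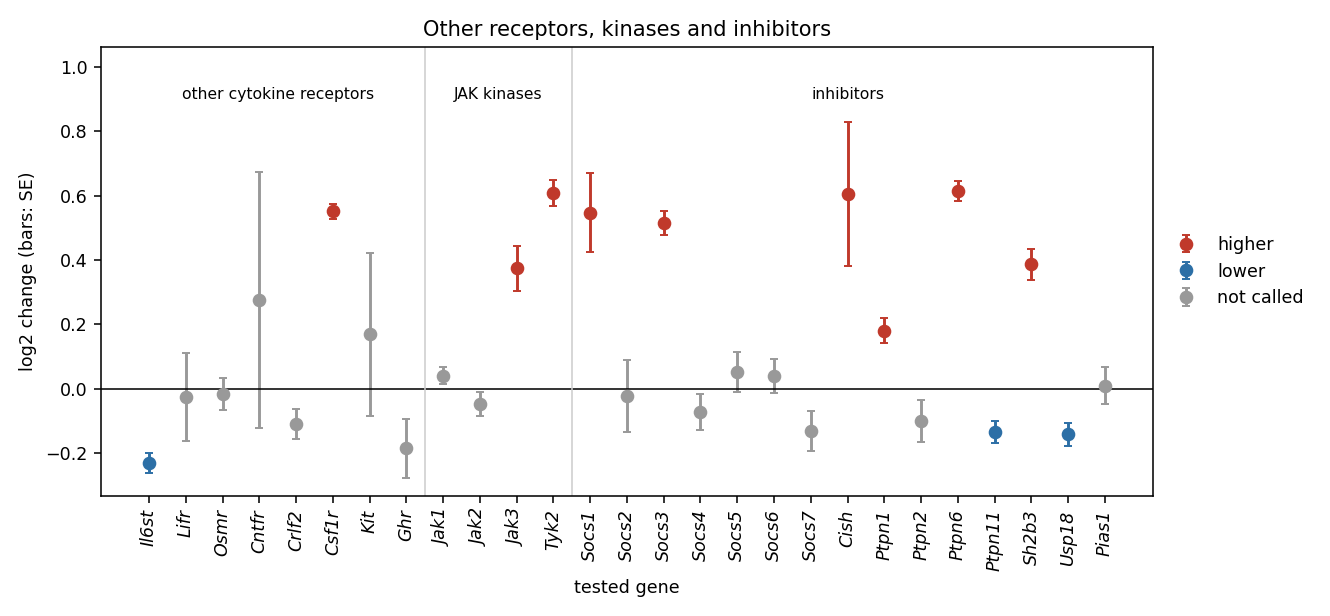
Log2 change with its SE, libraries labelled Tet2 knockout minus libraries labelled wild-type, of the tested genes in the lists of other cytokine receptors, JAK kinases and inhibitors. Tyk2, at 0.61, and Csf1r, at 0.55, stand out among kinases and receptors, and Il6st lies at -0.23.

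Among 43 ligand genes 15 were tested, 3 rose and 2 fell, and 18 had 0 counts in every library. Il12b, a subunit of IL-12 and IL-23, had 7.44 ± 0.905 CPM in KO-labelled libraries and 3.47 ± 0.570 CPM in WT-labelled libraries (SD over n = 3 each), a rise of 1.09 on the log2 scale, while Il12a had 0 counts throughout. Ebi3 rose by 0.79 and Lif by 0.42. Osm (log2 change -0.36) and Il6 (-0.37) fell, so that the ligand Il6 and the shared chain Il6st were lower while the private chain Il6ra was higher. Il21 had 0 counts in every library, and Il7 and Il10 were low and not called (log2 changes 0.02 and 0.44).

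Genes that respond to these receptors moved both ways. In the list of IL-4 and IL-13 response genes, all 8 tested members changed, 5 higher and 3 lower, among them Mrc1 (1.06), Ccl22 (1.52), Egr2 (-0.67) and Socs1 (0.55). Of 6 tested GM-CSF response genes 3 rose and 2 fell, with Itgax, the integrin CD11c, at 9.41 ± 0.640 CPM in KO-labelled libraries and 30.7 ± 2.09 CPM in WT-labelled libraries (SD over n = 3 each; log2 change -1.71). Fabp4 (0.44) and Pparg (0.48), an adipocyte-type lipid carrier and the nuclear receptor PPAR-gamma, rose, and Fabp5 fell (-0.21). Of 7 IL-10 response genes 4 rose and 2 fell, led by Etv3 (0.54), Socs3 and Tnfaip3 (-0.29). Of the 5 IL-17 adaptor and feedback genes none rose and 2 fell, Tnfaip3 and Traf3 (-0.20).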

How the data were processed

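The authors deposited a table of raw read counts per gene. Per the submitters' processing notes the reads were processed with fastp, STAR and featureCounts on mouse build mm10, without versions. Libraries were made with a NEBNext Ultra kit, per the labels' protocols, which does not mark strand, so overlapping genes on opposite strands cannot be told apart. The listed gene length equals the exon length in GENCODE M21 for 39 of the 40 receptor rows on chromosomes, all but Csf2ra.

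From the deposited counts, genes were kept by filterByExpr (minimum count 10; 13175 of 54532), scaled by TMM and compared with the robust quasi-likelihood test of edgeR 4.0.16 in R 4.3.3, genotype as the only term, with Benjamini-Hochberg adjustment over all tested genes and a threshold of 0.05. Log2 changes are knockout label minus wild-type label. Every tested receptor is named, and up to 4 called members of each other list by smallest p; Il6, Usp18, Ptpn11 and the listed genes that were not called were named after their values were seen, and 1 listed gene is not reported here. Shared sequence was counted over distinct 50-base stretches of GENCODE M21 transcripts. Motifs were searched in RefSeq promoter windows. The test was tried on simulated counts. The floors given for 0 counts cover counting error only, whereas the SEs and SDs include the spread among libraries. The genes and lists were chosen with earlier results of these data known.

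Alternatives tried were a fit with the replicate number as a block, a biological coefficient of variation assumed to be 0.1, each library left out in turn, protein-coding genes alone, no filter or a minimum of 1 CPM in 3 libraries, scaling by RLE or the upper quartile, limma-voom (limma 3.58.1) and DESeq2 1.42.0. For single results, Csf2rb and Csf2rb2 were summed and 1 read was added before ratios were taken. Figures were drawn with matplotlib 3.10.9.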

Additional observations from a re-analysis of the deposited data

How the results depend on the processing

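Of the 18 called receptors 12 were called under every alternative and 6 lost their call under at least 1, all 6 of them with the assumed biological coefficient of variation of 0.1, which left 9 receptors higher and 3 lower (Il7r, Il3ra and Csf2ra). With that assumption 1222 of all genes rose and 663 fell, in place of 2852 and 2533, and 4 other pathway genes fell in place of 13. Leaving out each library in turn kept 17 of the 18 calls, the exception being Csf2rb. The sign of uncalled Il11ra1 turned when single libraries were left out (log2 change -0.061 to 0.015), as did that of Il20rb (-0.21 to 0.022). The chain ratio differences of Il12rb1 to Il12rb2 (-0.56 to 0.038) and Il15ra to Il2rg (-0.096 to 0.0025) also changed sign, and the cause was not tested. RLE and upper-quartile scaling changed no receptor call, and the median log2 change of the receptors lay between 0.12 and 0.15 under every alternative. Libraries with the same number did not deviate together (r from -0.021 to 0.0036 across genes), and the fit with the replicate number as a block gave 12 receptors higher and 6 lower, as did the fit without it, and 2789 and 2470 over all genes. Receptors with fewer than about 50 counts a library have wide errors.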

Other observations

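Ccr3, a receptor for eotaxins listed among the eosinophil markers, had 23.1, 21.5 and 22.9 CPM in KO-labelled libraries and 8.53, 5.86 and 7.84 CPM in WT-labelled libraries (log2 change 1.59, SE 0.11; edgeR adjusted p = 1.48e-25). The other markers of that list were near 0 or not called: Prg2 had 0 to 4 counts a library, Epx 0 to 1, and Siglecf 0.766 ± 0.325 CPM in KO-labelled libraries and 1.26 ± 0.288 CPM in WT-labelled libraries (SD over n = 3 each; edgeR adjusted p = 0.124). Xcr1, a chemokine receptor listed among the dendritic cell markers, had 2.95, 3.91 and 3.94 CPM in KO-labelled libraries and 1.21, 1.49 and 2.45 CPM in WT-labelled libraries (log2 change 1.06, SE 0.24; edgeR adjusted p = 0.000177), while Zbtb46 of the same list was not called (log2 change 0.09; edgeR adjusted p = 0.805). The part of other cell types in these values was not tested.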
